A study of Homo sapiens with 6 samples.

Results

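Hexose transporters move glucose, fructose and related sugars across cell membranes, and 10 genes of this kind were followed here in Caco-2, a human colorectal carcinoma line that can take on enterocyte traits in culture. They were chosen by gene symbol as hexose transporters, with earlier results of these data known: 8 members of the SLC2 family (SLC2A1, SLC2A2, SLC2A3, SLC2A5, SLC2A8, SLC2A10, SLC2A12 and SLC2A13) and 2 of the SLC5 family (SLC5A1 and SLC5A9). All 10 were found in a table of read counts for 27685 genes. The study sequenced polyA RNA of a mock-transfected Caco-2 control that received pcDNA3 (genotype label WT) and of derivatives whose genotype label is FABP1_knockdown and whose title names hFABP1as, read here as a FABP1 antisense construct. Each group had 3 libraries from cells grown in the same serum-supplemented medium, and separate cultures are not stated. The p-values therefore reflect library-to-library spread, which may be technical. FABP1 encodes a cytosolic carrier of fatty acids, and the comparison asks how RNA levels differ with the construct. How many transfected clones stand behind each group is not given, so a difference between clones and an effect of the construct cannot be told apart.

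Proteins of the SLC2 family (GLUT proteins) let sugar run down its concentration gradient, whereas the SLC5 cotransporters (SGLT proteins) use the sodium gradient that the sodium pump maintains. In the enterocyte of the small intestine, SGLT1 (SLC5A1) takes up glucose and galactose and GLUT5 (SLC2A5) takes up fructose at the brush border, and GLUT2 (SLC2A2) releases sugar at the basolateral side. GLUT1 (SLC2A1) and GLUT3 (SLC2A3) supply glucose to proliferating cells of many kinds, including many carcinoma lines.

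Total counts ranged from 40351394 to 57979037 per library. Libraries are named here by the numbers in the column headers, 2, 3 and 4 in either group. FABP1, the gene named by the construct, was not lower in the antisense libraries: it stood at 138, 102 and 121 CPM (counts per 1e6 counts of the scaled library size) in the vector control and at 134, 147 and 122 CPM in the other group, with a log2 fold change of 0.16 (SE 0.12; adjusted p = 0.268, edgeR). Whether counting used strand is not given, so reads from an antisense construct could be included in this count, and the FABP1 values do not show whether the knockdown was effective. The group is called "labelled FABP1 antisense" after hFABP1as in its titles, and every rise or fall is that of this labelled group relative to the vector control. All 10 enterocyte markers examined had counts in both groups, among them KRT8, EPCAM and VIL1, and 5 of the 10 rose and 2 fell. Over all tested genes, 27.7% were higher and 27.3% lower by the test given below. The rise of KRT18 held in 7 of 12 alternative fits and the fall of VIL1 in 6 of 12. The other enterocyte marker calls held in 12 of 12 and were larger, at 1.36-fold to 9.02-fold. Summed marker levels of other cell types were 39.4 to 42.3 CPM in the vector control and 31.5 to 35.6 CPM in the labelled group for fibroblasts, 44.4 to 48.6 and 63.9 to 67.2 CPM for leukocytes, 0.833 to 1.42 and 2.39 to 2.67 CPM for endothelium, and 2.97 to 4.01 and 2.84 to 4.18 CPM for erythroid cells. Single markers within these sums moved far in opposite directions: LUM rose from 0.133 ± 0.0873 to 18.1 ± 1.87 CPM and PDGFRA fell from 22.7 ± 3.49 to 0.386 ± 0.285 CPM among the fibroblast markers. Among the leukocyte markers, CSF1R rose from 0.264 ± 0.295 to 3.23 ± 0.475 CPM and LYZ from 12.3 ± 0.857 to 25.4 ± 0.0636 CPM, and CD14 fell from 12.8 ± 1.41 to 2.46 ± 0.239 CPM (SD, n = 3). The endothelial markers PECAM1 and VWF rose, VWF in 8 of the 11 alternative fits that tested it. The leukocyte marker PTPRC, the fibroblast markers DCN, THY1 and COL1A2, the endothelial markers CDH5, KDR, CLDN5 and EMCN and the erythroid markers HBB, HBG1 and ALAS2 had 0 counts in all 6 libraries. The part of these other markers in the results was not tested, and in such bulk RNA fewer cells of a type and less RNA per cell cannot be told apart.

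The transporters of highest RNA level fell. SLC2A1, SLC2A2, SLC2A3, SLC2A8 and SLC5A9 were lower in the libraries labelled FABP1 antisense, by 1.33-fold to 3.42-fold, and SLC2A13 was 2.66-fold higher. These are the 6 of 10 members with enough counts for the test, and for each of the 6 the groups did not overlap. Passing this test was common in these data: 55.0% of 14640 tested genes passed a Benjamini-Hochberg adjusted p of 0.05 by the quasi-likelihood test of edgeR, 27.7% higher and 27.3% lower. The groups did not overlap in 62.7% of them, with the labelled group above in 31.7% and below in 31.0%. Counts of risen and fallen genes in the lists below are to be read beside these shares. The other 4 members, SLC2A5, SLC2A10, SLC2A12 and SLC5A1, had 0 to 5 counts over the whole vector control group and were not tested.

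**Figure D1:**
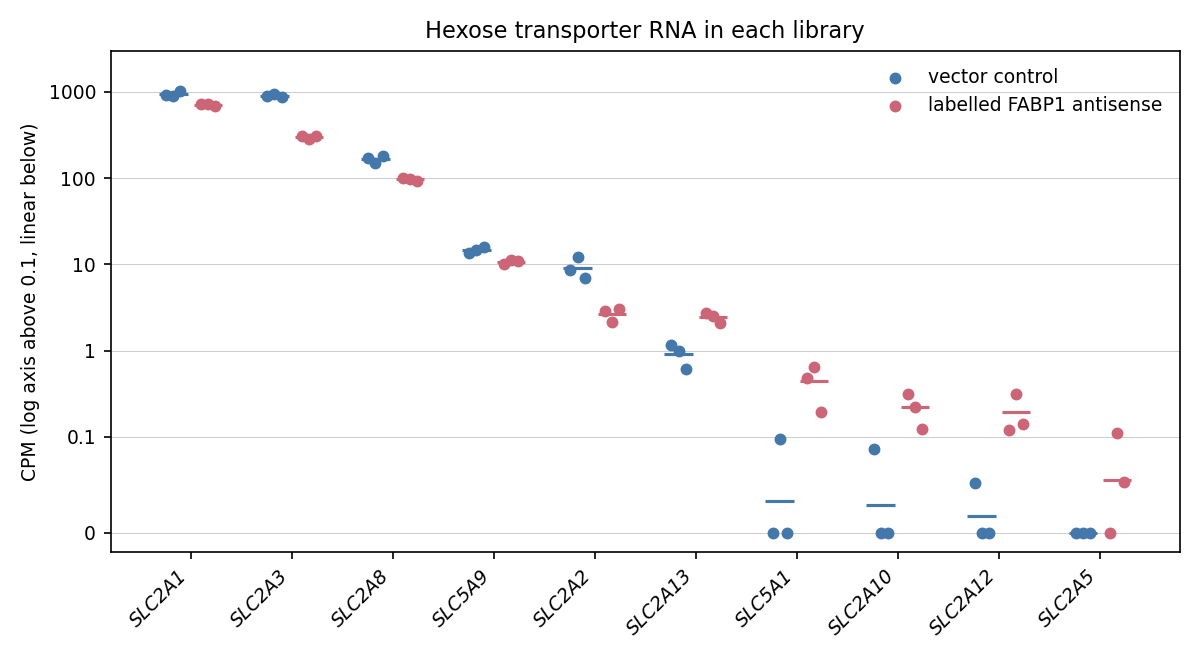
RNA level of the 10 transporter genes in CPM (vertical axis, logarithmic above 0.1 and linear below) in each of 3 vector control and 3 FABP1 antisense libraries (points), with group means as bars. SLC2A1, SLC2A3 and SLC2A8 lie highest and are lower in the labelled group, whereas SLC5A1, SLC2A10, SLC2A12 and SLC2A5 lie below 1 CPM in every library.

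SLC2A3 (gene ID 6515) encodes GLUT3, a transporter with high affinity for glucose, and it had the smallest adjusted p of the 6. Its level was 892, 947 and 873 CPM in vector control libraries 2, 3 and 4, against 304, 281 and 307 CPM in the labelled group. Every library of the second group lay far below the lowest of the first. The means were 904 ± 38.5 and 297 ± 14.2 CPM (SD, n = 3 per group). This gave a log2 fold change of -1.60 (SE 0.07; 95% interval -1.75 to -1.45; adjusted p = 2.19e-07, edgeR's quasi-likelihood test).

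SLC2A3 has a close copy, SLC2A14, which encodes GLUT14 and lies beside it on chromosome 12. Of 3841 windows of 75 bases in the reference SLC2A3 transcript, 500 also occur without mismatch in SLC2A14 transcripts, so reads can be assigned to either gene. As SLC2A3 is far more abundant, misassigned reads weigh much more on SLC2A14. What part of the SLC2A14 level comes from SLC2A3 reads was not tested. SLC2A14 moved in the same direction, from 29.7 ± 1.93 to 12.4 ± 1.34 CPM (SD, n = 3; log2 fold change -1.26, SE 0.10; adjusted p = 1.27e-05, edgeR). Its level was a small fraction of that of SLC2A3 in both groups. No other pair among the SLC2 and SLC5 genes examined that included one of the 10 members shared a window of this length.

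SLC2A1 (gene ID 6513) encodes GLUT1, the basal glucose transporter of many tissues, and fell by much less than SLC2A3. It stood at 921, 889 and 1014 CPM in controls 2, 3 and 4 and at 726, 718 and 678 CPM in the labelled libraries. Control library 4 was the highest of the 6, and all 3 labelled libraries lay below the lowest control. This gave a log2 fold change of -0.41 (SE 0.07; 95% interval -0.57 to -0.26; adjusted p = 0.000919, edgeR).

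The stretch of the genome just upstream of the SLC2A1 start, part of its promoter region, is shown first. Next to it are those of the other tested members for which a RefSeq entry was found (SLC2A2, SLC2A8 and SLC2A13). They are shown because these genes differ both in the direction and in the size of their change. Each line gives the 250 bases before the annotated start, 5′ to 3′ on the gene's own strand, from the RefSeq promoter table of GRCh38.p14 (the submitters' processing notes name GRCh37 for the read counts). Capitals mark matches, on either strand, to any of 4 short motifs: GGGCGG (the GC box, a binding motif of SP1), CACGTG (a palindromic E-box), ACGTG (a core of hypoxia response elements, which any CACGTG also contains) and TATAAA (the TATA box). The locations are chr1:42958869-42959118 (minus strand) for SLC2A1, chr3:171026721-171026970 (minus) for SLC2A2, chr9:127396919-127397168 (plus) for SLC2A8 and chr12:40106082-40106331 (minus) for SLC2A13.
SLC2A1: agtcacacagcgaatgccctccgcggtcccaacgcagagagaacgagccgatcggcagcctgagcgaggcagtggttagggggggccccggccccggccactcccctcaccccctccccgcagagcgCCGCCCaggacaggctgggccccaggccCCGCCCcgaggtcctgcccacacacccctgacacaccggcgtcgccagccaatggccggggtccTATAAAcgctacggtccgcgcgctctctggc
SLC2A2: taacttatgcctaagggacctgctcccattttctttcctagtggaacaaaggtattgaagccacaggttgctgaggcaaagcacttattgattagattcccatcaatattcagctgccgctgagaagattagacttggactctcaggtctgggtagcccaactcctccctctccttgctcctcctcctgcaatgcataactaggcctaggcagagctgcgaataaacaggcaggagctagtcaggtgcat
SLC2A8: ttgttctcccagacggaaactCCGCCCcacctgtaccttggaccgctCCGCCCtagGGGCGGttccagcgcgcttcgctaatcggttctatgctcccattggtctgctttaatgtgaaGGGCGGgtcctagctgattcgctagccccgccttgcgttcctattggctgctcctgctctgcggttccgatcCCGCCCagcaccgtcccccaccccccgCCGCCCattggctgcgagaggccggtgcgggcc
SLC2A13: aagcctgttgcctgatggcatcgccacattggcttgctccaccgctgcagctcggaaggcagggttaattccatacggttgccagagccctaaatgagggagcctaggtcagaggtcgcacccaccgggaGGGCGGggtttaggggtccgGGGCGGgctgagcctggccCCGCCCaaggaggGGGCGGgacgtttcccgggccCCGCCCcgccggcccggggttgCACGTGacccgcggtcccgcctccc

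These 4 stretches differ in composition. GC content was 72.4% for SLC2A1, 48.8% for SLC2A2, 65.2% for SLC2A8 and 70.0% for SLC2A13. SLC2A1 had 2 matches to GGGCGG and 1 to TATAAA, which begins 31 bases before the start. SLC2A8 had 6 matches to GGGCGG. SLC2A13, the member that rose, had 5 matches to GGGCGG and 1 to CACGTG, which also gives both of its matches to ACGTG. SLC2A2 held none of the 4 motifs in this window. Among 35116 promoters of the same length, GGGCGG occurred in 42.6%, ACGTG in 18.5%, TATAAA in 10.7% and CACGTG in 6.34%, and a match is a description of letters, not evidence of binding.

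SLC2A8 (gene ID 29988) encodes GLUT8, a transporter held mostly on internal membranes. Control libraries 2, 3 and 4 held 170, 149.8 and 181 CPM of it, and the labelled libraries 100.3, 98.1 and 92.0 CPM. The 3 labelled libraries lay close together, and all under the lowest control. This gave a log2 fold change of -0.78 (SE 0.08; 95% interval -0.98 to -0.59; adjusted p = 8.1e-05, edgeR).

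SLC2A2 (gene ID 6514) encodes GLUT2, the low-affinity transporter of liver, pancreatic beta cells and the basolateral enterocyte membrane, and was expressed at a low level. Controls 2, 3 and 4 gave 492, 491 and 300 counts, or 8.54, 12.0 and 6.99 CPM. The labelled libraries gave 119, 95 and 170, or 2.89, 2.12 and 3.02 CPM. Control library 3 was the highest and the controls spread widely, but none came down to the labelled libraries. This gave a log2 fold change of -1.77 (SE 0.22; 95% interval -2.27 to -1.27; adjusted p = 0.000194, edgeR).

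SLC5A9 (gene ID 200010) encodes SGLT4, a sodium cotransporter with a preference for mannose and fructose, and held nearly all SLC5 sugar transporter RNA among the 10 genes. Controls 2, 3 and 4 stood at 13.4, 14.7 and 16.0 CPM and the labelled libraries at 10.2, 11.3 and 10.9 CPM, with no overlap. This gave a log2 fold change of -0.44 (SE 0.09; 95% interval -0.66 to -0.23; adjusted p = 0.00396, edgeR).

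SLC2A13 (gene ID 114134) was the one tested member that rose. Its product, HMIT, is a proton-coupled transporter of myo-inositol, so the gene belongs to the family by sequence rather than as a carrier of glucose or fructose. Controls 2, 3 and 4 stood at 1.16, 0.980 and 0.606 CPM and the labelled libraries at 2.74, 2.55 and 2.097 CPM. All 3 labelled libraries were above the highest control. This gave a log2 fold change of 1.41 (SE 0.27; 95% interval 0.80 to 2.02; adjusted p = 0.00208, edgeR).

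The brush border transporters of glucose and fructose had almost no RNA in either group. SLC5A1 (SGLT1) had counts of 0, 4 and 0 in the vector control and of 20, 29 and 11 in the labelled group, or 0, 0.0980 and 0 CPM against 0.486, 0.649 and 0.196 CPM. All 3 labelled libraries lay above all 3 controls. Over each group this was 4 against 60 counts, a ratio of 14.9 with a 95% counting interval of 5.53 to 56.5 (exact Clopper-Pearson, counting error only). All 4 control counts came from library 3. In the fits without 1 library that tested the gene, its log2 fold change was 3.11 to 4.17. It was 7.41 without control library 3, when the control is at 0 and the fitted value is no bound. Leaving out a library loosens the filter, and the gene then enters through its counts in the labelled group. SLC5A1 was too low for the main test. In the fit without a filter on low counts it had an adjusted p of 0.0190 by edgeR's quasi-likelihood test, and by DESeq2 it had one of 0.00353.

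SLC2A5 (GLUT5), the fructose transporter of the intestine, had 0 counts in every vector control library. It had 0, 5 and 3 counts in libraries 2, 3 and 4 labelled FABP1 antisense, so the groups overlapped at 0. A count of 0 over the vector control group allows up to 3 counts, or 0.0212 CPM. Set against that floor, the 8 counts of the labelled group gave a 2.65-fold higher level. Counting error of those 8 counts is left out, so this is no lower bound. Of the 8, 5 came from library 3 and none from library 2. In the fit without a filter on low counts SLC2A5 did not pass (adjusted p = 0.135, edgeR), nor with DESeq2 (0.306).

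SLC2A10 and SLC2A12, which encode GLUT10 and GLUT12, were near the limit of detection. SLC2A10 had 5, 0 and 0 counts in the vector control and 13, 10 and 7 in the labelled group, a ratio of 5.97 (95% counting interval 2.29 to 19.7). SLC2A12 had 3, 0 and 0 counts against 5, 14 and 8, a ratio of 8.95 (2.75 to 46.1). The groups did not overlap in CPM for either gene. SLC2A12 overlaps the gene TBPL1 in the annotation, which was at 15.7 ± 1.57 and 17.7 ± 1.86 CPM, and whether counting used strand is not given, so reads of the shared stretch cannot be told apart. Neither passed in the fit without a filter (adjusted p = 0.0883 for SLC2A10 and 0.0557 for SLC2A12, edgeR). The share of 62.7% over tested genes compares only with the 6 of 6 tested members whose groups did not overlap. No such share was taken over genes too low for the test. At so few counts the separation of the untested members therefore cannot be weighed.

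Levels were set side by side between genes per length, as CPM per kb of the longest reference transcript. In the vector control, SLC2A1 (256 ± 17.7 CPM per kb, SD, n = 3) and SLC2A3 (231 ± 9.84 CPM per kb) led, and the lowest SLC2A1 library (242.1 CPM per kb) was just above the highest SLC2A3 library (241.8 CPM per kb). SLC2A8 followed at 76.8 ± 7.20 CPM per kb. SLC5A9 at 4.49 ± 0.395 and SLC2A2 at 2.86 ± 0.804 CPM per kb came next, with no overlap between them, and then SLC2A13 at 0.131 ± 0.0406 CPM per kb. The remaining 4 genes were each at 0 to 0.0198 CPM per kb in the vector control libraries, at which level they cannot be ordered. In the libraries labelled FABP1 antisense the order of the first 6 was the same, at 193 ± 7.06, 76.0 ± 3.61, 44.6 ± 1.99, 3.30 ± 0.166, 0.834 ± 0.151 and 0.352 ± 0.0474 CPM per kb. SLC2A1 and SLC2A3, which differed by little more than their spread in the vector control, were then far apart.

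**Figure D2:**
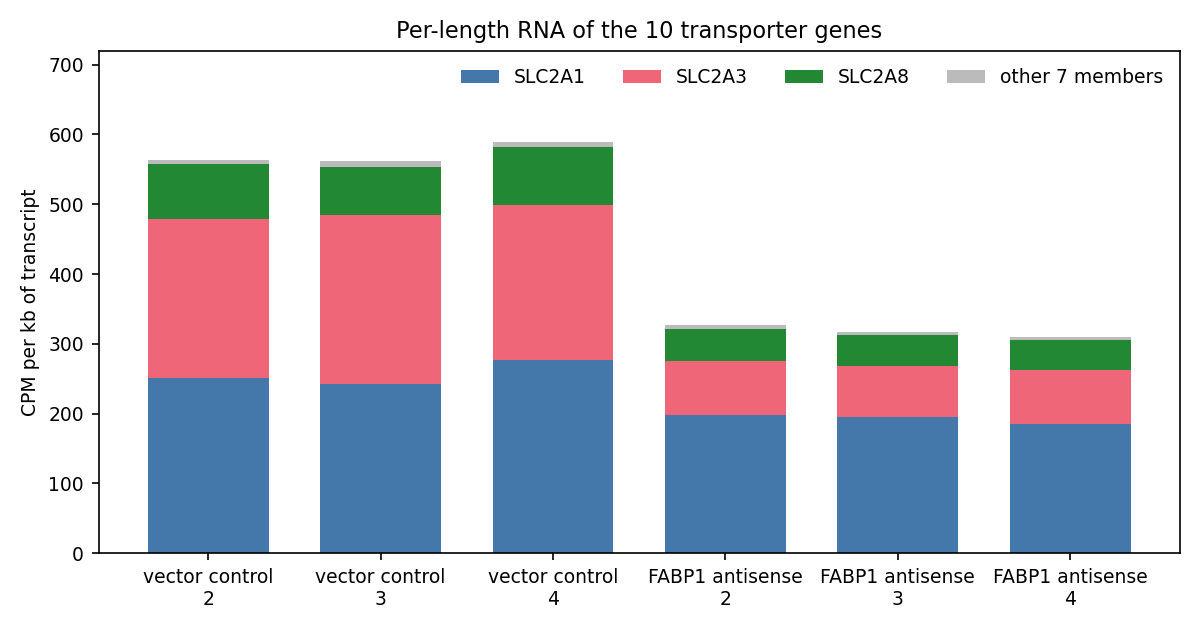
CPM per kb of transcript (vertical axis) in each library, stacked for SLC2A1, SLC2A3, SLC2A8 and the other 7 members. The stacks reach 561 to 589 CPM per kb in the vector control and 310 to 326 CPM per kb in the libraries labelled FABP1 antisense, and the SLC2A3 segment shrinks most.

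The summed per-length level of the 10 genes was 564, 561 and 589 CPM per kb in the vector control and 326, 317 and 310 CPM per kb in the labelled group. The groups did not overlap (two-sided exact permutation test, p = 0.1, the smallest p that 3 against 3 allows). Within that sum, SLC2A3 went from 40.4 ± 2.63% to 23.9 ± 1.33% and SLC2A1 from 44.8 ± 1.89% to 60.6 ± 1.05% (SD, n = 3). The share of SLC2A8 ran from 12.3% to 14.1% in the vector control and from 13.7% to 14.2% in the labelled group, and these ranges overlap. The ratio of SLC2A3 to SLC2A1 was 0.907, 0.999 and 0.807 in the vector control and 0.393, 0.367 and 0.424 in the labelled group, again without overlap (exact permutation p = 0.1). GLUT1 RNA formed a larger share of a smaller total.

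Genes that lie close together often moved together in these data, so each member was set beside its neighbours, the 50 tested genes on either side (mean log2 CPM 3 or more), in the gene order of RefSeq. For SLC2A1, on chromosome 1, the log2 fold change of -0.41 was close to the median of its neighbours, -0.43, and 53 of the 100 neighbours lay below it. For SLC5A9, also on chromosome 1, the value of -0.44 equalled the neighbours' median of -0.44, and 48 of 100 lay below it. The neighbour sets of these 2 genes share 50 genes, and each set also holds the other member, so they are not separate observations. In these sets 81 and 80 of 100 genes were called lower. SLC2A8, on chromosome 9, fell by more than its surroundings, with -0.78 against a median of -0.42, and 13 of 100 neighbours lay below it.

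SLC2A2, SLC2A3 and SLC2A13 departed most from their surroundings. SLC2A2 and SLC2A13 had mean log2 CPM of 2.58 and 0.79, below the 3 asked of neighbours, with SE of 0.22 and 0.27. The neighbours of SLC2A2, on chromosome 3, had a median log2 fold change of 0.02, and 1 of 100 lay below its -1.77. The neighbours of SLC2A3, on chromosome 12, had a median of 0.30, with 61 called higher and 14 lower, so that SLC2A3 fell where most nearby genes were higher, and 6 of 100 lay below it. Its close copy SLC2A14 is among those neighbours. SLC2A13 lies on the same chromosome, where its neighbours had a median of 0.32, and 93 of 100 lay below its 1.41. The sets of SLC2A3 and SLC2A13 share 25 genes. The untested SLC2A5, SLC2A10 and SLC5A1 lay among neighbours with medians of -0.57, -0.40 and -0.26, although their own counts were higher in the labelled group. SLC2A12 lay among neighbours with a median of 0.01. What moves whole stretches of genes together, and its part in the changes of SLC2A1, SLC5A9 and SLC2A8, was not tested.

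**Figure D3:**
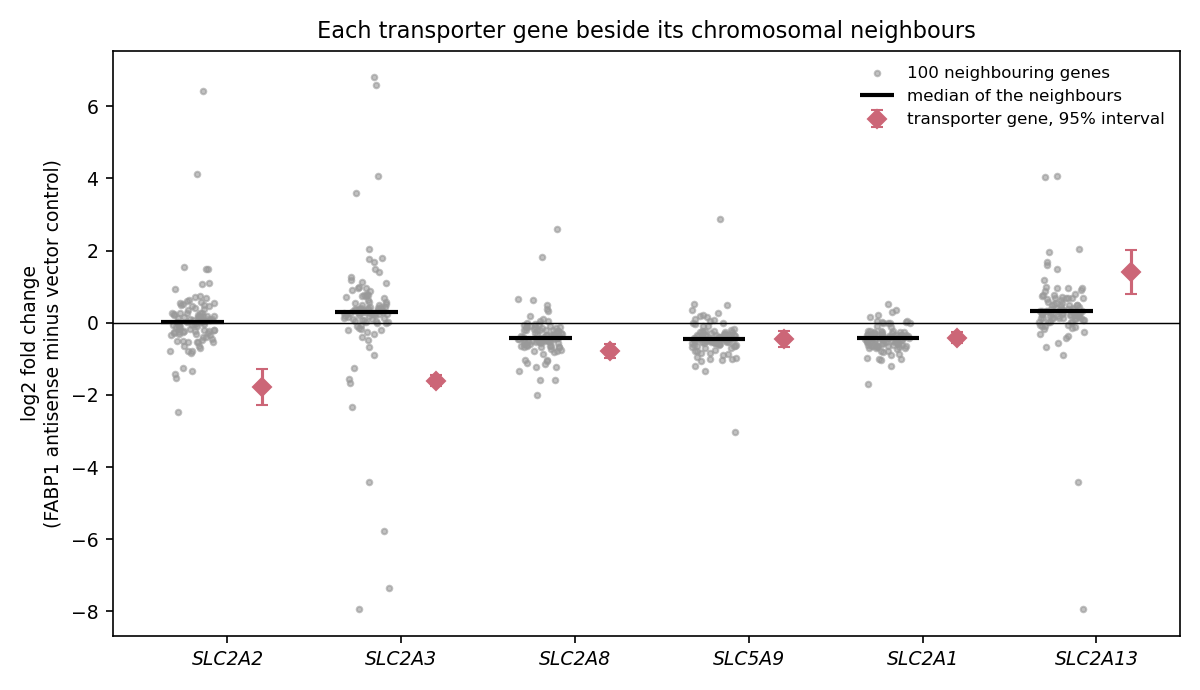
Log2 fold change (vertical axis, FABP1 antisense minus vector control) of the 6 tested transporter genes (diamonds with 95% intervals) beside their chromosomal neighbours. Grey points, jittered sideways, are the 50 tested genes of mean log2 CPM 3 or more on either side, and the black bar is their median. SLC2A1 and SLC5A9 sit on the medians of their neighbours, -0.43 and -0.44, whereas SLC2A2 and SLC2A3 sit below nearly all of theirs.

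No other tested member of the SLC2 and SLC5 families rose. Of 6 further SLC2 genes, 5 were tested: SLC2A14, SLC2A6 and SLC2A4 fell and none rose, with a median log2 fold change of -0.96 over the 5, against 0.01 over all tested genes. SLC2A6 (GLUT6, a lysosomal transporter) went from 18.6 ± 2.74 to 10.2 ± 1.22 CPM, and SLC2A4 (GLUT4, the insulin-responsive transporter of muscle and fat) from 0.703 ± 0.188 to 0.180 ± 0.132 CPM (SD, n = 3). The value of SLC2A14 is subject to the read sharing with SLC2A3 described above. SLC2A11 (0.11, SE 0.13) and SLC2A9 (-0.96, SE 0.75) did not pass. The median of the 5 is the value of SLC2A9 itself, and so is no more certain than that gene. Of 10 further SLC5 genes, 4 were tested, and SLC5A6, a vitamin transporter, fell (-0.32, SE 0.07). The myo-inositol cotransporter gene SLC5A3 (0.24, SE 0.12), the renal glucose cotransporter gene SLC5A2 (0.39, SE 0.32) and SLC5A12 (0.15, SE 0.35) did not pass, and the median of the 4 was 0.20.

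The enzymes that free sugars from disaccharides at the brush border changed in the other direction from the main transporters. Of 4 genes, SI, LCT and TREH rose and MGAM was too low to be tested (15 against 41 counts). LCT, the lactase gene, went from 0.543 ± 0.188 to 2.98 ± 0.414 CPM and TREH, the trehalase gene, from 0.516 ± 0.189 to 1.80 ± 0.102 CPM (SD, n = 3). For the sucrase-isomaltase gene SI it was 0.255 ± 0.141 against 22.3 ± 2.46 CPM, a log2 fold change of 6.41 (SE 0.25). Of 4 genes around the sodium pump, which powers SGLT transport, 2 fell, among them ATP1B1 (-0.28, SE 0.07), ATP1B3 (0.41, SE 0.06) rose and FXYD3 did not pass, with a median of -0.12.

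The first steps of hexose use showed no common direction. Of 9 genes of hexose phosphorylation and glycolytic entry, 6 were tested: HKDC1 and HK1 rose, GPI and G6PC3 fell, and HK2 and SLC37A4 did not pass, with a median of 0.05. HKDC1, a hexokinase of epithelial tissues, went from 150 ± 11.5 to 263 ± 14.5 CPM, while HK2, the hexokinase of many tumours, was at 62.3 ± 2.98 and 70.1 ± 3.09 CPM (SD, n = 3). HK1 rose by 0.52 (SE 0.17), a call that held in 5 of 12 alternative fits. HK3 and G6PC had 0 counts in all libraries. Of 7 genes of fructose and polyol metabolism, AKR1B1 and SORD rose and TKFC, KHK and GALK1 fell, with a median of -0.46. AKR1B1 and SORD encode the 2 enzymes of the polyol pathway, which turns glucose into fructose inside the cell, with means of 57.9 ± 4.95 and 133 ± 9.32 CPM for AKR1B1 and 78.5 ± 3.19 and 123 ± 0.569 CPM for SORD (SD, n = 3). KHK and TKFC, which act on fructose and its breakdown products, had means of 22.1 ± 3.73 and 16.0 ± 1.56 CPM (KHK) and 43.5 ± 5.66 and 28.4 ± 2.80 CPM (TKFC). GALK1, for galactokinase, fell by 0.47 (SE 0.13), a call lost without vector control library 4 (2 genes of the list then lower in place of 3), and 2 genes, among them GALM (0.04, SE 0.06), did not pass.

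Of 12 genes that sense glucose or control transporters at the membrane, 9 were tested: 6 rose (ARRDC4, TXNIP, MLXIP, MLXIPL, SGK1 and NEDD4L), MLX fell and 2 did not pass, with a median log2 fold change of 0.56. TXNIP and ARRDC4 encode alpha-arrestins that bind glucose transporters and promote their removal from the cell surface. TXNIP stood at 33.9, 34.8 and 33.2 CPM in the vector control and at 103, 108 and 99.2 CPM in the labelled libraries, a log2 fold change of 1.60 (SE 0.07; adjusted p = 2.76e-07, edgeR). ARRDC4 stood at 2.73, 3.16 and 2.84 CPM against 24.9, 26.2 and 28.8 CPM, a log2 fold change of 3.20 (SE 0.10; adjusted p = 6.17e-08, edgeR). For both genes every labelled library was far above every control.

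TXNIP and ARRDC4 are known targets of MondoA and ChREBP, the glucose-responsive transcription factors encoded by MLXIP and MLXIPL. MLXIP rose from 81.3 ± 7.04 to 193 ± 11.5 CPM and MLXIPL from 8.86 ± 1.37 to 14.4 ± 2.90 CPM (SD, n = 3). MLX, their shared partner, fell by 0.18 (SE 0.06), a call that held in 3 of 12 alternative fits. SGK1, a kinase, and NEDD4L, a ubiquitin ligase, both of which act on SGLT1 and other membrane transporters, rose by 0.56 (SE 0.08) and 0.51 (SE 0.06). ARRDC3 (0.36, SE 0.14) and RSC1A1 (-0.42, SE 0.20), which encodes a regulatory protein of SGLT1, did not pass. The sweet taste signalling genes TAS1R2 and GNAT3 had 0 counts in all libraries.

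**Figure D4:**
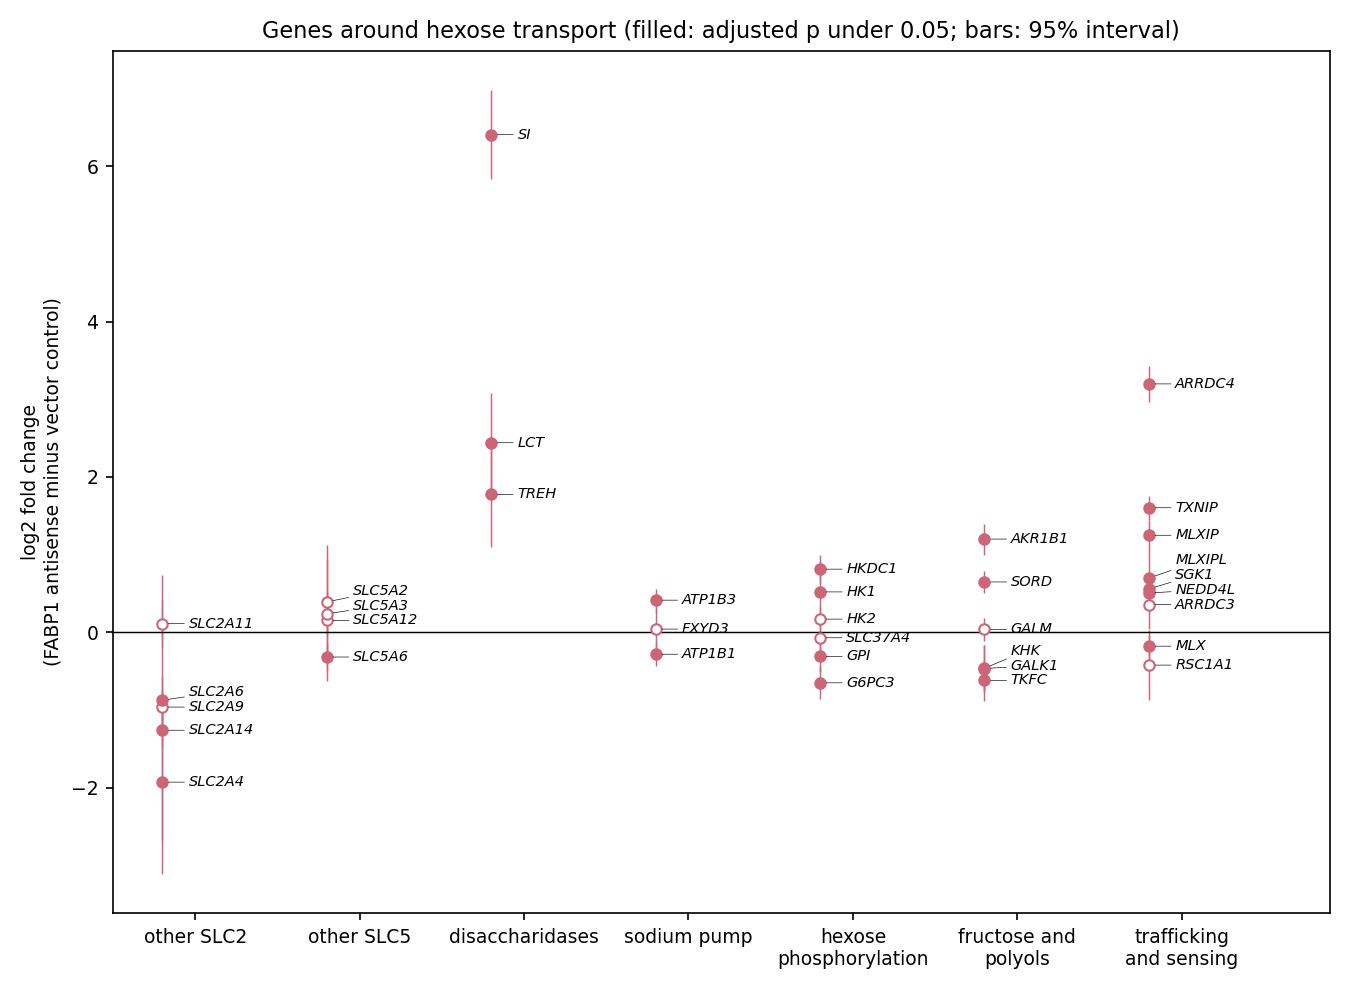
Log2 fold change (vertical axis, FABP1 antisense minus vector control) of tested genes named in the text, in 7 groups around hexose transport, with 95% intervals; filled points passed an adjusted p under 0.05. The 3 disaccharidase genes and ARRDC4, TXNIP and MLXIP stand highest, and SLC2A4 and SLC2A14 lowest.

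Transcription factors known to act on transporter genes changed in either direction. Of 13, HNF4G, CDX2, MYC, EPAS1, SP1 and GATA4 rose, 2 fell, among them GATA6, and 5 did not pass, with a median of 0.13. Over all tested genes 55.0% passed, 27.7% higher and 27.3% lower. HIF1A, an activator of SLC2A1 and SLC2A3 under low oxygen, did not pass (-0.07, SE 0.09). HNF4G rose from 2.11 ± 0.491 to 20.1 ± 1.72 CPM (SD, n = 3). The rise of GATA4 (0.26, SE 0.10) held in 3 of 12 alternative fits and the fall of GATA6 (-0.20, SE 0.07) in 7 of 12.

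Genes most like the 3 best-known transporters across the 6 libraries were found by Pearson correlation of log2 CPM. The search covered tested genes of mean log2 CPM 3 or more. Before logs were taken 0.5 CPM was added, which weighs most on a gene as low as SLC5A1. The closest genes were SDC1, AP2A2 and KLHL22 for SLC2A1, SRP54, TNFAIP3 and NME7 for SLC2A2, and IQGAP3, FOXO4 and SRP14 for SLC5A1. Their r ran from 0.974947 to 0.999622 over 6 libraries. With 2 groups that stand apart, such values mostly express the group difference: 1320 of 10024 genes (13.2%) had an r above 0.95 with SLC2A1 and 754 of 10025 (7.52%) with SLC2A2, but 28 (0.279%) with SLC5A1, whose counts are few.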

How the data were processed

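PolyA RNA of 6 Caco-2 samples was sequenced from stranded TruSeq libraries, per the labels' protocols. Per the submitters' processing notes, the build was GRCh37 and the software comprised StringTie 1.3.4d, Bowtie2 2.3.4.1, HISAT2 2.1.0, Trimmomatic 0.38 and bcl2fastq, with no roles given. The deposited table gives whole-number read counts per gene, and the counting tool and its use of strand are not given in the sources used here. Its 12 columns of length-normalised values were not used. Column headers number the libraries 2, 3 and 4 where the labels say 1, 2 and 3, so columns were assigned to groups only.

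Counts were filtered with filterByExpr, scaled by TMM and compared with edgeR 4.0.16 (quasi-likelihood test, Benjamini-Hochberg adjustment over 14640 genes, threshold 0.05) in R 4.3.3. The script was tested on simulated data. CPM used the scaled library sizes. A design planned on lengths from the deposited values was replaced by the longest GENCODE v29 transcript matched by accession. Levels at 0 used a floor of 3 counts, and intervals of count ratios cover counting error only. Alternatives were other scalings, filters, DESeq2 1.42.0, a replicate block and leaving out each library. Named genes were FABP1, the 10 transporters, the genes of 14 lists and, for SLC2A1, SLC2A2 and SLC5A1, the 3 genes of highest correlation. Members and lists were chosen with earlier results of these data known. Some genes of the lists enter the counts given but are not reported here by name.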

Additional observations from a re-analysis of the deposited data

How the results depend on the processing

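The 6 tested transporters kept their direction and stayed past the threshold in 12 of 12 alternative fits. Their log2 fold changes ranged over -0.46 to -0.36 (SLC2A1), -1.94 to -1.54 (SLC2A2), -1.63 to -1.56 (SLC2A3), -0.86 to -0.73 (SLC2A8), -0.51 to -0.38 (SLC5A9) and 1.19 to 1.63 (SLC2A13), and FABP1 (0.05 to 0.27) passed in 0 of 12. The number of members lower was 5 throughout. The number higher was 2 in place of 1 without a filter on low counts and with DESeq2, and 1 to 2 when single libraries were left out, because SLC5A1 was then tested and passed. Leaving out a library loosens the filter on counts, and SLC5A1 then enters through its counts in the labelled group. Its passing there is no separate support. Depth limits SLC2A5, SLC2A10, SLC2A12 and SLC5A1, which rest on few counts.

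Deviations of same-numbered libraries from their group means correlated at 0.038, -0.154 and -0.253. With 3 libraries per group, such values cannot show whether the numbers pair the libraries. With the replicate block, 3355 genes were higher and 3306 lower, 5 members were lower and 1 was higher, 1 gene of hexose phosphorylation was higher, and 0 regulators of trafficking and sensing and 0 transcription factors were lower. Hexose phosphorylation also had 1 gene higher with DESeq2, and 1 to 2 when single libraries were left out. The call of MLX was lost, leaving 0 lower, with library size only and with a filter of 1 CPM, and 0 when any single library was left out. Left-out libraries gave 1 to 2 transcription factors lower and 0 to 1 further SLC5 genes higher, the 1 without vector control 3. The cause was not tested.

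With 25 neighbours on either side, the neighbour medians were 0.09 for SLC2A2, -0.46 for SLC2A8, -0.34 for SLC2A10, 0.13 for SLC2A12 and -0.40 for SLC5A9, and with 100 they were -0.38 for SLC2A8 and -0.44 for SLC2A10. With the shortest matched transcript, an alternative chosen after seeing the data, SLC2A8 made up 16.0% and 16.7% of the per-length sum and SLC2A1 58.7% in the libraries labelled FABP1 antisense, since SLC2A8 then has a shorter length.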
